A study of Arabidopsis thaliana with 12 samples.

Results

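The genes described here are 5 Arabidopsis thaliana genes that act, or are classed as acting, on the pectin and the acetyl groups of the plant cell wall. They are AT5G62360 and AT5G20740, which belong to the family of invertase and pectin methylesterase inhibitors, AT5G63180 and AT1G60590, which have the pectin lyase fold, and TBL45 (AT2G30010), a trichome birefringence-like protein. They were picked by their measured signals, for large falls at low water potential or for lower signal in stressed hai1-2 seedlings than in stressed wild type. Each gene has 1 probe set that the platform annotation assigns to it alone, so the 5 genes are 5 of the 22810 probe sets on the array. Of those, 17059 entered the tests, 9396 of them with 1 named gene, and all 5 genes were among them.

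Pectin is the gel-like polysaccharide of the growing wall, and much of it is homogalacturonan, a chain of galacturonic acid that is laid down in methyl-esterified form. Pectin methylesterases take the methyl groups off, inhibitor proteins hold those enzymes back, and pectate lyases and polygalacturonases cut the chain. Acetyl groups on pectin and on other wall polysaccharides are added with the help of trichome birefringence-like proteins and are removed by acetylesterases. Changes in these groups alter how stiff the wall is and how easily it is digested, and they accompany growth and its arrest.

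The study measured whole seedlings of the accession Col-0 and of hai1-2, a mutant of At5g59220 in the Col-0 background, on Affymetrix arrays. HAI1 is a clade A protein phosphatase 2C of abscisic acid signalling. In all 4 groups 7-day-old seedlings were moved from control agar to new plates and collected 96 h later. The control plates of Col-0 and of hai1-2 were at -0.25 MPa, and the stress plates of Col-0 and of hai1-2 were infused with polyethylene glycol 8000 and were at -1.2 MPa. Growth was under continuous light on medium without sugar. Each of 3 independent experiments gave 1 sample of each group, so the 12 arrays make 4 groups of 3, and the replicate number is taken as the experiment. Seedlings were taken whole, so fewer cells of a type and less RNA per cell cannot be told apart in any value given here.

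Array medians lay between 195 and 212, and each array had 3331 to 3929 probe sets with a signal under 16, where order carries little information. No array pair was identical, and each array correlated at 0.973 to 0.982 with its nearest other array on the log2 scale. The platform annotation used here names no probe set for At5g59220, so the genotype label was not checked by that gene. Markers of shoot photosynthesis, 5 of 24 listed genes measured, had summed signals of 67810 to 94537 on control plates and 41206 to 49853 on stress plates. The 4 measured root markers of 13 listed summed to 14919 to 18640 on control plates and 16536 to 23754 on stress plates. PYK10 made up most of that sum, with a mean of 16390 of 16884 on Col-0 control plates. The log2 differences with stress in Col-0 and hai1-2 were 0.18 and 0.4 for PYK10 and 0.47 and 0.47 for AT5G66390. They were larger for the root-hair markers EXPA7, at 2.34 and 1.85, and EXPA18, at 1.41 and 1.24. The only guard cell marker measured of 6 listed read 173 to 298 on control plates and 79.1 to 158 on stress plates, and none of the 8 vascular markers was measured. None of these sums separated hai1-2 from Col-0 at -1.2 MPa, and their part in the results was not tested. The 5′ to 3′ ratio of the GAPDH control, a measure of RNA integrity, lay between 0.756 and 0.952 for Col-0 at -1.2 MPa and between 1.05 and 1.16 for hai1-2 at -1.2 MPa. An older pair of GAPDH probe sets gave 0.69 to 1.15 against 0.634 to 0.79, and the actin and ubiquitin ratios overlapped between the genotypes. The part of RNA integrity in the genotype differences at low water potential was not tested.

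All 5 genes were much lower at -1.2 MPa than on control plates in both genotypes, and in every case the 3 stress arrays of a genotype lay wholly below its 3 control arrays, as in 20.2% of all tested probe sets in Col-0 and 23.3% in hai1-2. They split by how the mutant differed. AT5G62360 and TBL45 kept under 5% of their control signal in Col-0 and in hai1-2, with overlapping stress groups. AT5G20740, AT5G63180 and AT1G60590 kept more signal in stressed Col-0 than in stressed hai1-2, in each of the 3 experiments. Since these 2 kinds of difference are what the genes were picked for, their stress responses and their genotype difference under stress are given as descriptions, with no test. The interaction, which contains these differences, is treated likewise.

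**Figure D1:**
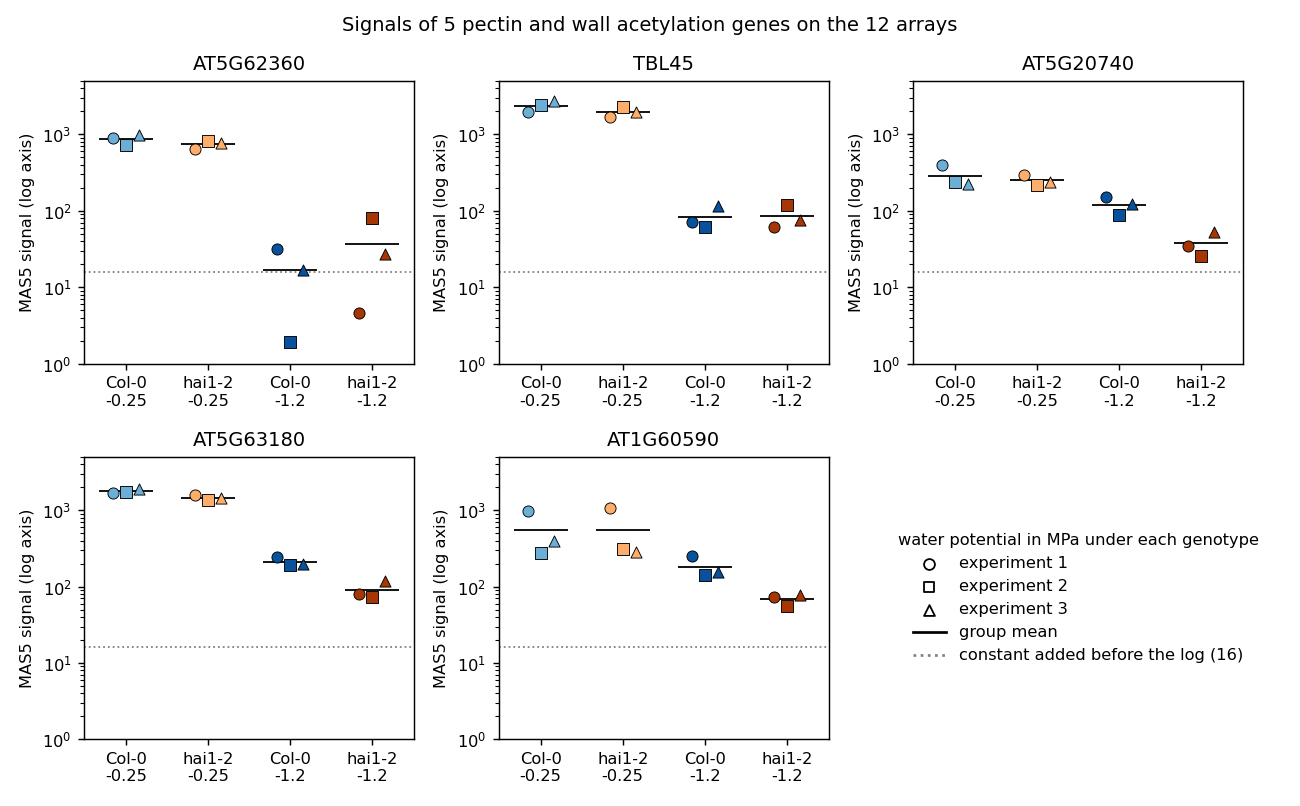
Signal of each of the 5 genes on the 12 arrays, with the MAS5 signal on a log axis and the 4 groups, genotype over water potential in MPa, along the x axis. Symbols mark the experiments, bars the group means and the dotted line the constant of 16 that was added before logs were taken. AT5G62360 is the only gene with arrays under that line, and in AT5G20740, AT5G63180 and AT1G60590 the 3 stressed hai1-2 arrays lie below the 3 stressed Col-0 arrays.

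AT5G62360 is one of the pair from the inhibitor family, whose members hold pectin methylesterases or invertases back. Its signal in Col-0 was 903.6, 724 and 995.8 on control plates and 31.9, 1.9 and 16.9 at low water potential in experiments 1, 2 and 3. In hai1-2 it was 641.1, 814.5 and 776.7 on control plates and 4.6, 79.7 and 27.2 at low water potential. The control arrays of both genotypes formed 1 narrow band, while the 6 stress arrays were scattered over a wide range and both genotypes had an array under 16. Group means were 874 ± 138 and 16.9 ± 15 in Col-0 and 744 ± 91.2 and 37.2 ± 38.5 in hai1-2 (SD, n = 3 each), so 1.93% of the control signal was left in Col-0 and 4.99% in hai1-2. On the scale of log2(signal + 16) the difference was -4.86 in Col-0 and -4.10 in hai1-2. At this low end the constant sets the size: with 1 in place of 16 the differences were -6.18 and -4.99, and with 64 they were -3.54 and -3.06. Between the stressed genotypes the direction was not shared by the experiments, with log2 differences of -1.22, 2.42 and 0.39 for hai1-2 against Col-0. The mean of 0.53 became -0.03 without the stressed hai1-2 array of experiment 2 and 1.08 without that of experiment 1.

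TBL45 belongs to the family whose best known members in Arabidopsis transfer acetyl groups to wall polysaccharides. The Col-0 control arrays read 1949, 2426.4 and 2721.9, and the Col-0 stress arrays 72.4, 60.6 and 117.5. The hai1-2 control arrays read 1713.2, 2276.9 and 1958.8, and the hai1-2 stress arrays 60.9, 119.2 and 76.5. Stress and control arrays were far apart, and the 2 genotypes interleaved at low water potential. The group means were 2366 ± 390 and 83.5 ± 30 in Col-0 and 1983 ± 283 and 85.5 ± 30.2 in hai1-2 (SD, n = 3). Of the control signal 3.53% and 4.31% was left, and the log2 differences were -4.61 and -4.33. Unlike AT5G62360, all its stress arrays were above 16. Stressed hai1-2 differed from stressed Col-0 by 0.03 ± 0.24 (SE) on the log2 scale, with differences of -0.20, 0.82 and -0.53 in the 3 experiments.

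AT5G20740 is the other gene of the inhibitor family. On control plates it read 402.3, 238.9 and 224.4 in Col-0 and 298.1, 221.1 and 240.9 in hai1-2. At low water potential Col-0 gave 152, 87.9 and 122.5 and hai1-2 gave 34.6, 25.6 and 53.6. The Col-0 and hai1-2 control arrays overlapped, whereas the highest stressed hai1-2 array lay below the lowest stressed Col-0 array. Col-0 kept 41.9% of its control mean (121 ± 32.1 against 289 ± 98.8) and hai1-2 kept 15% (37.9 ± 14.3 against 253 ± 40). The log2 differences from control were -1.14 and -2.34, and stressed hai1-2 stood at 31.4% of stressed Col-0. In experiments 1, 2 and 3 the log2 difference between the stressed genotypes was -1.73, -1.32 and -0.99. The mean of -1.35 ± 0.26 (SE) was -1.67 with a constant of 1 and -0.85 with 64.

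AT5G63180 is classed with the pectate lyases, enzymes that cut homogalacturonan free of methyl groups. Col-0 read 1691.4, 1711.3 and 1912.1 on control plates and 247.1, 192.8 and 196.4 at low water potential. The mutant read 1570.8, 1353.7 and 1456.7 on control plates and 80.8, 73.4 and 116.9 at low water potential. Among the 5 genes its control replicates lay closest to each other relative to their means, and the genotypes did not overlap at low water potential. The means were 1772 ± 122 and 212 ± 30.4 in Col-0 and 1460 ± 109 and 90.4 ± 23.3 in hai1-2, which left 12% and 6.19% of the control signal. The log2 differences from control were -2.98 and -3.81. Stressed hai1-2 stood at 42.6% of stressed Col-0, with log2 differences of -1.44, -1.22 and -0.68 in the 3 experiments and a mean of -1.11 ± 0.17 (SE).

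AT1G60590 is grouped with the polygalacturonases, which cut homogalacturonan by hydrolysis. It read 970.7, 275.5 and 398.9 in Col-0 and 1073.1, 312.5 and 285.3 in hai1-2 on control plates. At low water potential it read 249, 142.6 and 157.1 in Col-0 and 72.9, 54.9 and 78.3 in hai1-2. The stressed genotypes did not overlap, but the control arrays were split by experiment and not by genotype, with experiment 1 far above the rest. Means were 548 ± 371 and 183 ± 57.7 in Col-0 and 557 ± 447 and 68.7 ± 12.3 in hai1-2, and 33.4% and 12.3% of the control signal was left. The log2 differences from control were -1.35 and -2.50. They rest in part on the high control arrays: without that of experiment 1 they were -0.84 in Col-0 and -1.90 in hai1-2. The difference between the stressed genotypes itself does not contain those arrays, and there hai1-2 stood at 37.6% of Col-0, with log2 differences of -1.58, -1.16 and -0.88 and a mean of -1.2. Its SE was 0.47 in the fit over all 12 arrays, whose residual spread includes the control arrays, and 0.2 with the 6 stressed arrays alone and the experiment as a block.

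The split of AT1G60590 on control plates by experiment was looked at further after its values were seen. Its lower experiment 1 control array was 2.43 times the highest of the other 4 control arrays, and the mean of both was 1022 against 318. Across the array, both experiment 1 control arrays were above the other 4 in 2478 of 17059 probe sets (14.5%), but a gap of at least 2-fold was seen in 32 (0.188%). AT1G23205, listed with the pectin methylesterase inhibitors, was another, with 654.6 and 625.2 in experiment 1 against 162.6 to 294.6 elsewhere. AT1G48100, listed with the polygalacturonases, was a further one, with 207.7 and 182.2 against 46.5 to 72.8. At low water potential AT1G23205 read 96 to 123.3 and AT1G48100 113.3 to 214.8 over the 6 arrays, with no such split. For the other 4 genes described here the ratio of experiment 1 to the rest on control plates was 0.933 for AT5G62360, 0.781 for TBL45, 1.51 for AT5G20740 and 1.01 for AT5G63180. AT5G20740 also had both experiment 1 control arrays above the other 4, the lower at 1.24 times the highest of those. The labels give no harvest time or batch beyond the replicate number, so what set experiment 1 apart was not tested.

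**Figure D2:**
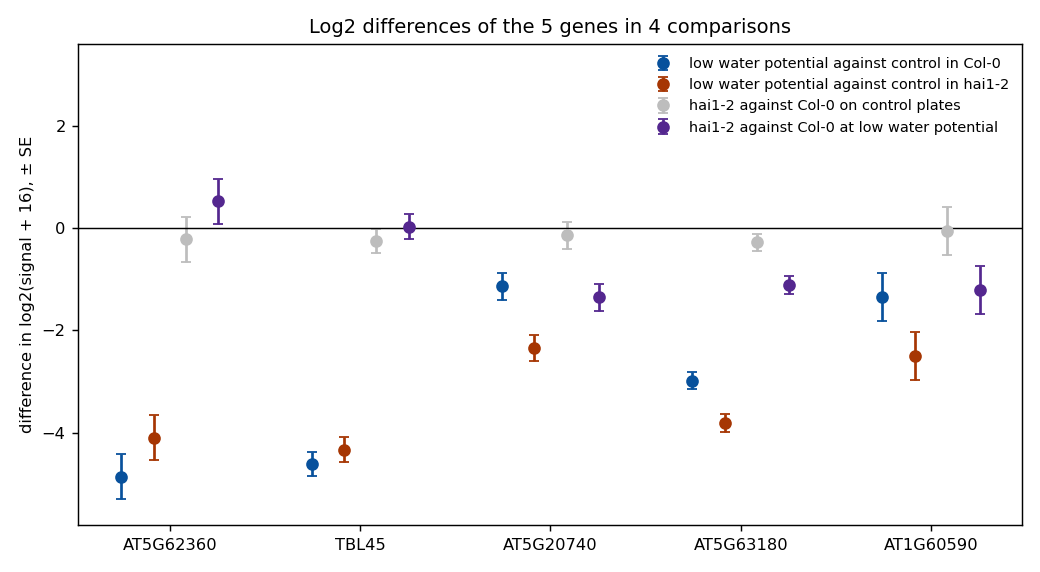
Log2 differences of the 5 genes, in log2(signal + 16), with bars of ± 1 SE from the limma fit over all 12 arrays, for the response in Col-0, the response in hai1-2, and hai1-2 against Col-0 on control plates and at low water potential. The control-plate differences all lie between -0.28 and -0.05, while at low water potential 3 genes lie between -1.35 and -1.11 and the other 2 at 0.03 and 0.53.

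Comparing genotypes on control plates is the 1 contrast that was not used to pick the genes, and it asks whether the mutant differed without stress. None of the 5 genes passed limma's moderated test, with an adjusted p of 0.999 for each. Over the whole array 0 of 17059 probe sets passed (0%), and 546 had an unadjusted p under 0.05. All 5 estimates were below 0, from -0.28 for AT5G63180 to -0.05 for AT1G60590. The 95% interval of the log2 difference was -0.63 to 0.08 for AT5G63180 and -0.76 to 0.26 for TBL45. It ran from -0.70 to 0.42 for AT5G20740, from -1.18 to 0.73 for AT5G62360 and from -1.06 to 0.96 for AT1G60590. These widths come from the unblocked fit over both treatments, so they do not give the spread of the control arrays alone. For AT5G62360 that fit includes stress arrays scattered from 4.16 to 6.58 on the log2 scale, against 9.36 to 9.98 for its control arrays. For AT1G60590 it includes the split between experiments, within which the control-plate differences were 0.14, 0.17 and -0.46. For AT5G63180 the 3 hai1-2 control arrays all lay below the 3 Col-0 control arrays, at an unadjusted p of 0.12.

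The change in the genotype difference with treatment, the interaction, was -1.21 ± 0.37 for AT5G20740, -0.84 ± 0.24 for AT5G63180 and -1.16 ± 0.66 for AT1G60590 (log2, SE). It was 0.75 ± 0.63 for AT5G62360 and 0.28 ± 0.34 for TBL45. Within experiments 1, 2 and 3 it was -1.32, -1.22 and -1.09 for AT5G20740, -1.34, -0.89 and -0.29 for AT5G63180 and -1.72, -1.33 and -0.41 for AT1G60590. These 3 genes were below 0 in every experiment, whereas AT5G62360 gave -0.73, 2.25 and 0.75 and TBL45 gave -0.02, 0.91 and -0.06. The interaction contains the difference under stress for which the 3 genes were picked, so their shared direction is a description and not a test. Leaving out single arrays moved the value of AT1G60590 between -1.66 without the Col-0 control array of experiment 1 and -0.56 without the hai1-2 one. It moved AT5G62360 between 0.19 and 1.3, without the stressed hai1-2 arrays of experiments 2 and 1, and TBL45 between 0.05, without the stressed hai1-2 array of experiment 2, and 0.51, without the stressed Col-0 array of experiment 3. As context, 1 probe set in all was called in the genotype contrast at low water potential (0.00586%) and 1 in the interaction (0.00586%). In both cases it was 247723_at, which was lower in hai1-2. The annotation used here leaves it unnamed. A separate naming of the parts of this series labels it as the probe set of HAI1, the mutated gene. In all, 1294 of the 17059 probe sets (7.59%) had 3 stressed hai1-2 arrays wholly below the 3 stressed Col-0 arrays, the 3 genes picked for lower signal included. With the 6 stressed arrays alone and the experiment as a block, an alternative chosen after seeing the data, 107 probe sets passed (0.627%), of which 54 were lower in hai1-2 (0.317%).

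The same pathway was followed in 7 classes of genes assembled by protein class, without the 5 genes above. Of 232 listed loci 130 were measured by a probe set of their own and 87 genes besides the 5 were tested. In Col-0 15 of the 87 rose and 22 (25.3%) fell at adjusted p under 0.05, against 18.1% rising and 16.1% falling over all tested probe sets. In hai1-2 12 rose and 31 (35.6%) fell, against 19.9% and 17.8% over all. The median log2 difference of the 87 genes was 0.01 in Col-0 and -0.20 in hai1-2, against 0.07 over all probe sets in each. Both responses of a gene come from separate arrays, and no test of the difference between the counts was run.

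**Figure D3:**
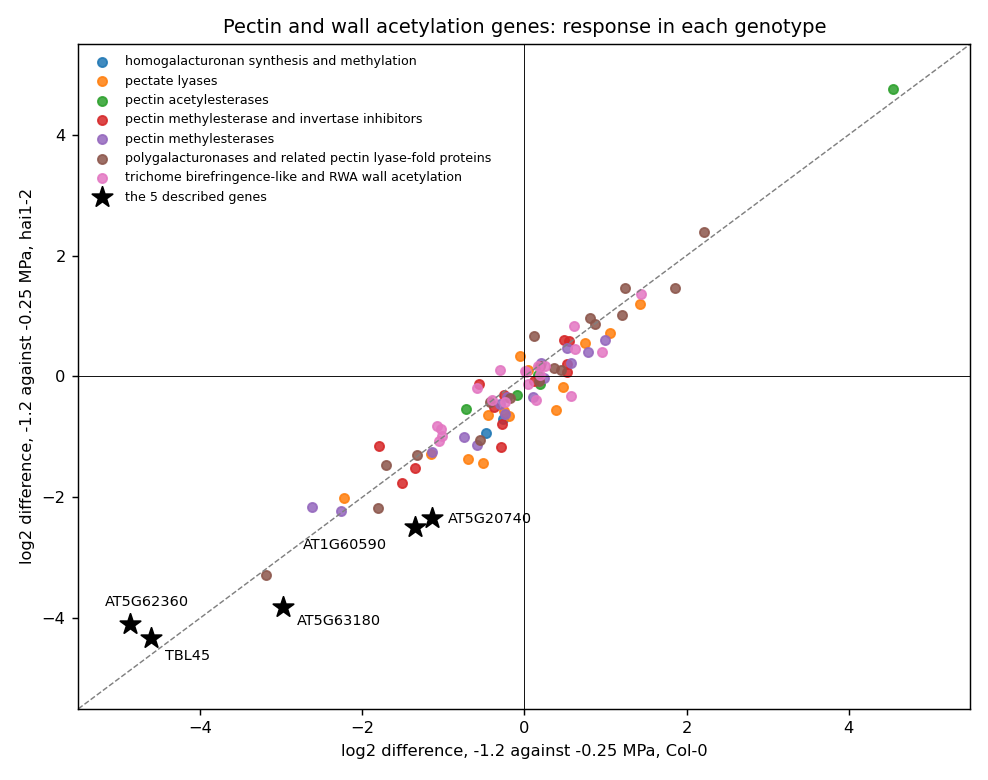
Log2 difference between -1.2 and -0.25 MPa in hai1-2 (y axis) against that in Col-0 (x axis) for the 87 tested genes of the 7 classes, coloured by class, and the 5 described genes as stars. The dashed line marks equal responses. The stars lie at the lower left, with AT5G20740, AT1G60590 and AT5G63180 below the line, and the pectin acetylesterase AT1G57590 is alone at the upper right.

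Among the relatives of AT5G62360 and AT5G20740 in the inhibitor family, 13 were tested, and none rose in either genotype. In Col-0 4 fell (30.8%) and in hai1-2 6 fell (46.2%), against 16.1% and 17.8% of all tested probe sets. AT4G25260 fell from 645 ± 115 to 218 ± 57.8 in Col-0 and from 702 ± 177 to 191 ± 24.1 in hai1-2, log2 differences of -1.51 and -1.77. AT3G62820 fell in both (-1.79 in Col-0 and -1.16 in hai1-2), and AT1G23205 fell as well (-1.35 in Col-0 and -1.52 in hai1-2), although the call of the latter in Col-0 was lost without the control array of experiment 1 (-0.83, limma adjusted p = 0.0737) and without the stress array of experiment 3 (-1.26, adjusted p = 0.0647). AT2G01610 read 360 ± 81.5 and 290 ± 58.5 in Col-0 and 412 ± 37.3 and 175 ± 31.6 in hai1-2. It fell in hai1-2 (-1.17, limma adjusted p = 3.6e-04) and gave -0.29 in Col-0 (adjusted p = 0.279), and its interaction of -0.88 did not pass (adjusted p = 0.99). The gene next to AT5G62360 on the chromosome, AT5G62350, is of the same family and behaved otherwise: it read 7303 ± 718 and 6125 ± 159 in Col-0 and 6504 ± 690 and 5229 ± 503 in hai1-2, with differences of -0.25 and -0.31 that did not pass (adjusted p = 0.147 and 0.0657). The hai1-2 value of AT5G62350 passed limma's test without the Col-0 control array of experiment 3 (-0.31, adjusted p = 0.0483). It also passed without the hai1-2 stress array of experiment 2 (-0.39, adjusted p = 0.0436). In the main fit the adjacent annotated genes AT5G20790, next to AT5G20740, and AT5G63190, next to AT5G63180, also gave no call in either genotype.

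The pectin methylesterases, the enzymes that the inhibitors act on, moved in both directions. Of 15 tested, 2 rose (13.3%) and 5 fell (33.3%) in Col-0, against 18.1% and 16.1% of all tested probe sets. In hai1-2 1 rose (6.67%) and 5 fell (33.3%), against 19.9% and 17.8%. ATPMEPCRD fell from 418 ± 34.7 to 58.3 ± 29.7 in Col-0 and from 310 ± 42.9 to 59.7 ± 25.5 in hai1-2 (log2 -2.62 and -2.16), and AT3G10720 fell too (-2.26 and -2.23). AT3G43270 rose from 242 ± 29.4 to 494 ± 29.6 in Col-0 and from 265 ± 39.9 to 412 ± 67 in hai1-2 (0.99 and 0.60). PMEPCRF was not called in either genotype and gave 0.21 and 0.22.

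The pectate lyases, the class of AT5G63180, also moved in both directions. Of 14 others tested, 3 rose (21.4%) and 4 fell (28.6%) in Col-0, against 18.1% and 16.1% of all tested probe sets. In hai1-2 3 rose (21.4%) and 7 fell (50%), against 19.9% and 17.8%. AT3G07010 fell from 929 ± 235 to 184 ± 20.8 and from 1020 ± 78.2 to 240 ± 30 (-2.22 and -2.02), and AT3G24670 rose by 1.42 and 1.2 on the log2 scale. In 6 of the 14 (42.9%) all stressed hai1-2 arrays lay below all stressed Col-0 arrays, and in 1 all lay above, against 7.59% of all tested probe sets wholly below and 6.52% wholly above. Over all 7 classes 18 of the 87 genes (20.7%) were wholly below and 4 wholly above. The share wholly below varied by class. It was 5% of the 20 relatives of TBL45, 15.4% of the inhibitors, 16.7% of the polygalacturonases and 20% of the 5 pectin acetylesterases. It was 26.7% of the pectin methylesterases and 50% of the 2 genes of homogalacturonan synthesis. In limma's test 0 of the 87 passed for the genotype difference on control plates, at low water potential or for the interaction, with 2, 9 and 7 at an unadjusted p under 0.05. Over all tested probe sets 546 (3.2%), 953 (5.59%) and 732 (4.29%) had such a p.

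With the 6 stressed arrays and the experiment as a block 4 of the 87 genes passed, all lower in hai1-2, and 3 were pectate lyases. Over all tested probe sets 107 passed in that fit (0.627%), of which 54 were lower in hai1-2 (0.317%). AT1G04680 read 1432.2, 1268.6 and 1447.3 in stressed Col-0 and 975.5, 751.9 and 782.2 in stressed hai1-2 (log2 -0.72 ± 0.13, limma adjusted p = 0.0358). AT3G53190 read 1026.9, 660.5 and 809.8 against 535.2, 430.3 and 453.3 (-0.78 ± 0.13, adjusted p = 0.0318). AT4G24780 read 4403.4, 3607.5 and 3666.4 against 2780.5, 2285.9 and 2114.7 (-0.70 ± 0.12, adjusted p = 0.0355). In all 3 the genotypes did not overlap, and every experiment showed hai1-2 below Col-0. The other was TBL36, a relative of TBL45, with 1960.3, 1588.6 and 1587 against 1196.9, 1093.5 and 806.6 (-0.73 ± 0.13, adjusted p = 0.0367). These calls depend on that design: in the fit over all 12 arrays the adjusted p was 0.743 for AT1G04680, 0.584 for AT3G53190, 0.625 for AT4G24780 and 0.584 for TBL36, and over all alternatives it ran up to 1.

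**Figure D4:**
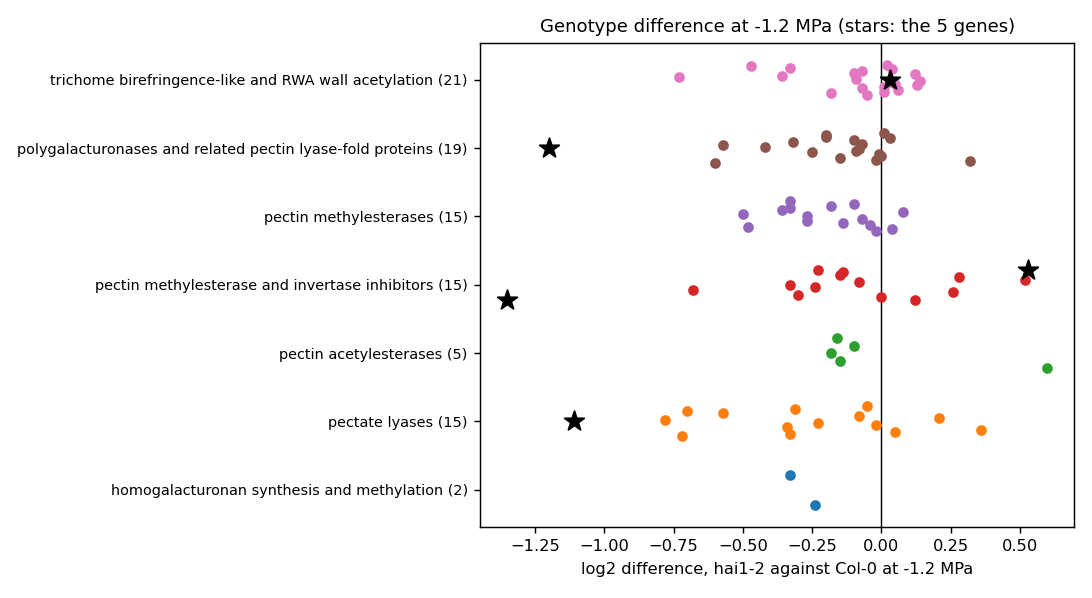
Log2 difference of hai1-2 against Col-0 at -1.2 MPa (x axis) for each tested gene of the 7 classes, 1 row per class with the number of genes, the 5 described genes included as stars. Among the other genes none passes -0.78 on the low side, and AT5G20740, AT1G60590 and AT5G63180, picked for it, lie at -1.35, -1.2 and -1.11.

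Of the polygalacturonases and related proteins, the class of AT1G60590, 18 others were tested. In Col-0 5 rose (27.8%) and 4 fell (22.2%), against 18.1% and 16.1% of all tested probe sets. In hai1-2 5 rose (27.8%) and 5 fell (27.8%), against 19.9% and 17.8%. AT4G23820 fell furthest of the genes named in the class, from 1880 ± 373 to 189 ± 19.4 in Col-0 and from 1730 ± 358 to 164 ± 38 in hai1-2 (-3.19 and -3.28). AT3G06770 (-1.80 and -2.17) and AT3G62110 (-1.71 and -1.46) also fell. Genes of both classes of chain-cutting enzymes therefore rose and fell side by side.

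Of 20 relatives of TBL45 tested, 4 rose (20%) and 4 fell (20%) in Col-0, against 18.1% and 16.1% of all tested probe sets. In hai1-2 2 rose (10%) and 5 fell (25%), against 19.9% and 17.8%. TBL25 fell from 2308 ± 265 to 1132 ± 119 and from 2190 ± 374 to 1088 ± 47.1 (-1.02 and -0.99), while TBL21 rose from 30.2 ± 10.6 to 113 ± 47.1 and from 22 ± 4.82 to 89.9 ± 46.4 (1.44 and 1.37). AT5G06700, TRICHOME BIREFRINGENCE itself, fell as well (-1.03 and -0.87). AT2G31110 has a pair of probe sets, 1 giving -1.05 and -1.07 and the other -1.2 and -0.53. None of the relatives named here had a difference as large as the -4.61 and -4.33 of TBL45, which was picked for its large fall. Among 5 pectin acetylesterases, which remove the acetyl groups of pectin, AT1G57590 rose from 68.6 ± 10.3 to 1954 ± 314 in Col-0 and from 94.2 ± 15.8 to 2975 ± 435 in hai1-2, log2 differences of 4.54 ± 0.17 and 4.76 ± 0.17 (SE). AT3G05910 fell (-0.72 and -0.54), but its call in hai1-2 was lost when any of 4 single hai1-2 arrays was left out, namely the control arrays of experiments 2 and 3 and the stress arrays of experiments 1 and 3, with log2 differences from -0.57 to -0.45. Of the 28 loci listed for homogalacturonan synthesis and methylation only 2 were measured, so the class as a whole was not seen. These 2, GAUT15 and AT3G49720, fell in hai1-2 (-0.71 and -0.94). In Col-0 they gave -0.27 and -0.47, which did not pass (limma adjusted p = 0.241 and 0.0508). For AT3G49720 the Col-0 value passed with the replicate block (adjusted p = 0.045) and in 4 other alternatives, and over all alternatives run its adjusted p was 0.0196 to 0.209.

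Patterns were compared by the root mean square difference between log2 profiles over the 12 arrays, each centred on its own mean, against 9395 other single-gene probe sets. Nearest to AT5G62360 was TBL45, at 0.46, ahead of AT1G22690 at 0.51 and AT2G41090 at 0.58, and AT5G62360 was in place 4 from TBL45. Nearest to TBL45 were AT2G41090 at 0.30, AT1G22690 at 0.35 and AT1G66100 at 0.41. AT2G41090 stood at 7432 ± 1855 on Col-0 control plates and 397 ± 62.2 at low water potential, and AT1G22690 at 3160 ± 385 and 75.5 ± 33.1.

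Nearest to AT1G60590 was EXPA8, an expansin of the family that loosens growing walls, at 0.31, followed by AT3G28040 and AT5G20740, each at 0.43. EXPA8 shared the split on control plates, with a Col-0 mean of 1481 ± 754 and a hai1-2 mean of 1439 ± 760, and stood at 414 ± 100 and 260 ± 49.3 at low water potential. Nearest to AT5G20740 were AT4G03010 at 0.34, SPCH at 0.35 and AT3G50270 at 0.38, with AT1G60590 in place 23. SPCH, the transcription factor SPEECHLESS that starts the stomatal lineage, read 127 ± 16.3 and 40.9 ± 11.7 in Col-0 and 95.1 ± 16.9 and 16.8 ± 2 in hai1-2. Its stressed hai1-2 arrays read 15.5 to 19.1, and those of AT4G03010 read 8.5 to 27.4. Such signals near 16 carry little information on size, which limits the likeness of both to AT5G20740. Nearest to AT5G63180 were AT1G49750 at 0.23, AT1G09750 at 0.30 and AT2G25510 at 0.34. None of the other 4 genes was among its nearest 3, and TBL45 was in place 79. Likeness in this measure follows mainly the size of the stress difference and includes arrays on which the genes were picked, so it is a description.

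**Figure D5:**
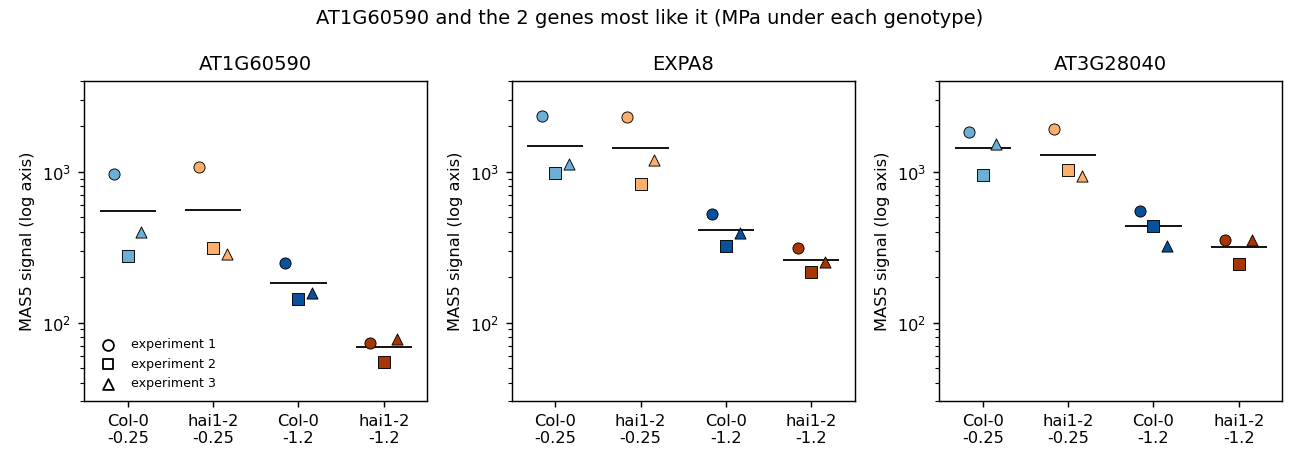
Signals of AT1G60590, EXPA8 and AT3G28040 on the 12 arrays (MAS5 signal, log axis), by genotype and water potential in MPa, with symbols for the experiments and bars for group means. In each of these genes the experiment 1 control arrays of both genotypes lie above those of experiments 2 and 3. For AT3G28040 they read 1837.6 and 1933.5, against 936.6 to 1523.4 in the other experiments.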

How the data were processed

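RNA of 12 whole-seedling samples was measured on Affymetrix arrays. The deposited values are MAS5 signal intensity per probe set on a linear scale, made with MAS5 per the submitters' processing notes. Its version is not given in the sources used here, and the trimmed mean of 500 on every array is read from the values. From the deposited intensity log2(signal + 16) was computed in R 4.3.3, 64 control probe sets were left out, and the 5687 probe sets in the lowest 25% by mean over all 12 arrays (mean log2 under 5.67) were removed, leaving 17059. With limma 3.58.1 (lmFit, contrasts.fit, eBayes with an intensity trend) 1 mean per group was fitted over all 12 arrays. Tests were two-sided, with Benjamini-Hochberg adjustment over all 17059 probe sets and calls at adjusted p under 0.05. SDs are of signals, and SEs are the fit's. The number of arrays limits the precision. The fit was tested on simulated data.

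The members and the lists were chosen with earlier results of these data known. The 5 genes are named always. Of each class, named genes were drawn from up to 4 called per comparison by smallest adjusted p and up to 2 not called by highest mean signal, plus those called with the experiment block and those sharing the experiment 1 split, which were chosen after their values were seen. Probe sets were named by the platform annotation where it gives 1 gene (13513 probe sets, of which 13436 matched a locus of TAIR10.1). Classes were set by the name in the RefSeq table for 23 of the 87 tested genes and otherwise, for 64, by a list written from general knowledge of the families. A gene with several probe sets is given by the one of highest mean.

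The study's design has each experiment give 1 sample of each group. Within a treatment, deviations from the group means correlated at 0.128 to 0.517 between same-numbered samples of the 2 genotypes and at -0.422 to 0.164 between samples of different numbers. Across treatments, same-numbered samples of 1 genotype correlated at -0.0232 to 0.0929. Alternatives tried were constants of 1 and 64, no filter and a filter of the lowest 50%, quantile normalization, no variance trend, the compared groups alone, the replicate block, each array left out, and, added after seeing the data, the 6 arrays of a treatment with the block.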

Additional observations from a re-analysis of the deposited data

How the results depend on the processing

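The log2 differences of the 5 genes kept their direction under every alternative in both stress responses, with AT5G62360 moving most with the constant, as given above. No gene of the 5 passed on control plates in any alternative run. The probe sets called in the genotype contrast at low water potential numbered 1, against 3 with the replicate block over 12 arrays, 107 with the 6 arrays and the replicate block, 2 without the variance trend, 2 with only the groups compared and 2 with a constant of 64. Leaving out single arrays gave 1 to 2. On control plates the count was 0, against 1 with the replicate block, and leaving out single arrays gave 0 to 1. Of the 87 class genes, removing the lowest 50% left 6 rising and 17 falling in Col-0, and 5 rising and 23 falling in hai1-2. The main fit gave 15 rising and 22 falling in Col-0, and 12 rising and 31 falling in hai1-2. The 6 arrays with the replicate block called 4 in the genotype contrast at low water potential, against 0. Leaving out single arrays gave 11 to 16 rising and 19 to 23 falling in Col-0, and 11 to 13 rising and 24 to 31 falling in hai1-2. The called totals over all probe sets then ran from 4629 to 6078 for Col-0 and from 5261 to 6890 for hai1-2. Of 81 tested results of single genes 12 changed their call in any alternative, and none reversed past the threshold. The cause of these changes was not tested. Signals near 16, as those of AT5G62360 at low water potential, carry little information on size.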
